A study of Mus musculus with 24 samples.

Results

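The genes described here are the 6 dual specificity phosphatase genes Dusp1, Dusp4, Dusp5, Dusp6, Dusp8 and Dusp16, taken by symbol from an expression table of 15390 genes, in which 19 rows carry a Dusp symbol with a number. All 6 rows were found, and all 6 passed the filter on low values that left 13272 genes for testing. Dusp2, Dusp7, Dusp9 and Dusp10, which also encode phosphatases of MAP kinases, are in the table too and are given below with the other DUSP genes. The cells were MC38, an established mouse colon carcinoma line, grown in DMEM with fetal calf serum. A pair of control guide RNAs (control gRNA 1 and 2, genotype control) and a pair of guide RNAs against Ado (labelled Ado KO) gave 4 guide populations, called here by genotype and guide number. Each population was left untreated (UT) or given TNF-alpha for 1 h or for 6 h, and 2 libraries were made of each under each condition. The 6 groups (control untreated, control TNF 1 h, control TNF 6 h, Ado KO untreated, Ado KO TNF 1 h, Ado KO TNF 6 h) thus have 4 libraries each, 24 in all. The labels do not say whether a population was 1 clone or a pool, or whether the 2 libraries came from separate cultures, so the error behind each p-value is the scatter of the libraries at hand, part or all of which may be technical. The untreated libraries are labelled without a time of harvest, so an effect of TNF at 6 h and of the hours in culture cannot be told apart.

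MAP kinases (ERK, JNK and p38) are switched on by phosphorylation of a threonine and a tyrosine in their activation loop, and dual specificity MAP kinase phosphatases remove both phosphates. Many of these phosphatases are transcribed in response to the kinases they switch off, which makes them feedback inhibitors, and they differ in location and in the kinases they prefer. DUSP1 is a nuclear phosphatase of p38, JNK and ERK and a classical immediate early gene product; DUSP8 and DUSP16 prefer JNK and p38; DUSP5 is nuclear and acts on ERK, DUSP6 is cytoplasmic and acts on ERK, and DUSP4 is nuclear and acts on ERK and JNK. TNF, a cytokine of inflammation, activates NF-kB, JNK, p38 and ERK through its receptors. Ado encodes 2-aminoethanethiol dioxygenase, a thiol dioxygenase.

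The sequences upstream of 3 of the genes, Dusp1, Dusp8 and Dusp5, are shown, and the short motifs upstream of the members differ. Dusp1 and Dusp8 were called higher at 1 h of TNF, and Dusp5 at 6 h but not at 1 h. A link between motifs and times of response was not tested. The sequences are from RefSeq (GRCm38.p6), printed 5′ to 3′ on the gene's strand, and begin 250 bases before the RefSeq start. Of the 6 members, 5 had an entry, and Dusp4 had none. The window of Dusp1 (minus strand, chr17:26508520-26508722) and that of Dusp5 (plus strand, chr19:53528895-53529108) end at base -48 and base -37 counted from the start, where the GENCODE annotation begins an exon of the gene. The window of Dusp8 (minus strand, chr7:142095285-142095534) runs to base -1, with no GENCODE exon of Dusp8 in it. GENCODE extends Dusp8 to base 142095843 and Dusp1 to base 26562128, so these 2 windows lie upstream of the RefSeq start but inside the GENCODE gene. The bases after the RefSeq start were found in a GENCODE transcript for Dusp1 and Dusp5 but not for Dusp8. Capitals mark the cyclic AMP response element TGACGTCA in Dusp1 and Dusp8 and the CArG boxes, the sites known to bind serum response factor, in Dusp5.
Dusp1: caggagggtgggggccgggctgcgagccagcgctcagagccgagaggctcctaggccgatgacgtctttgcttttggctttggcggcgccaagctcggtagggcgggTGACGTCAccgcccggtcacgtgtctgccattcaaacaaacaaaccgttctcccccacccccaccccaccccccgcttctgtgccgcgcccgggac
Dusp8: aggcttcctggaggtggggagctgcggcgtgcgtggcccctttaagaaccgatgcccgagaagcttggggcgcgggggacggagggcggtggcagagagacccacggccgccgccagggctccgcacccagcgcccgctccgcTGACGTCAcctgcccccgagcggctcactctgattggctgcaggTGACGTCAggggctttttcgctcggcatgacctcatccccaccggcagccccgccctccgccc
Dusp5: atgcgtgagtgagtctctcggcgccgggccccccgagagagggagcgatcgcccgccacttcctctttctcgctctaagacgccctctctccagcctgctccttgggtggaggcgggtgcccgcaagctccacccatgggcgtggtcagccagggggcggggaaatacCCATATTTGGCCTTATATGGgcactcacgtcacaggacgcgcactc
The full element TGACGTCA began at base -143 of Dusp1 and at bases -107 and -63 of Dusp8, and 1.546% of the 32851 promoters in the table hold it within the same 250 bases. Its shorter core TGACG, which the full element contains, was also present once more upstream of Dusp1, at base -191, and once each upstream of Dusp5 and Dusp16, and occurs in 17.77% of promoters. Dusp5 held CArG boxes at bases -82 and -72, a motif found in 1.467% of promoters. An E-box (CACGTG, 6.021% of promoters) was found upstream of Dusp1. The other motifs searched on both strands, the AP-1 site TGANTCA (6.749% of promoters), the ETS site CCGGAAGT (2.877%) and the NF-kB site (7.251%), matched none of the 5 windows. With 7 motifs searched in windows of one length, these matches are a description of the letters.

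Expression was measured with the QuantSeq 3' kit, which gives about a tag per transcript near its 3' end. Values are the authors' normalised log2 CPM (tag counts per 1000000), on which a difference of 1 is a factor of 2. The lowest value shared by all libraries and the step above it correspond to a count of 0 and of 1 with an offset of 0.5, which puts the average depth at about 5100000 tags; the depth of each library is not in the table. Of 11 NF-kB feedback genes, textbook targets of TNF, 11 were called higher at 6 h in each genotype, where 7.74% of all genes tested were called higher in control libraries and 4.42% in those labelled Ado KO. Nfkbia, the NF-kB inhibitor, was 3.10 ± 0.08 (SE) higher on the log2 scale at 1 h in control libraries. The level of Ado lay between 5.00 and 5.53 log2 CPM in all 24 libraries and differed between genotypes by 0.14 on average over the treatments (limma adjusted p = 0.31); a 3' tag does not read a guide's cut, so this neither checks nor contradicts the labels. Of 10 colon epithelium markers 3 were in the table, Cdh1, Krt8 and Krt18, and their summed level was 0.294 to 3.37 CPM with medians of -0.98, -0.57 and -3.35 log2 CPM; Epcam, Krt19, Krt20, Cdx1, Cdx2, Vil1 and Cldn7 had no row. The 7 of 9 mesenchymal markers in the table summed to 1374 to 1807 CPM, most of it from Vim, with a median of 10.46 log2 CPM. The medians of Fn1, Col3a1, Dcn, Pdgfra, Pdgfrb and Thy1 were 6.02, 5.52, 3.55, 2.54, 1.32 and 0.88 log2 CPM, and Col1a1 and Col1a2 had no row. The 5 of 10 immune markers in the table summed to 6.28 to 24.4 CPM, highest in an untreated Ado KO library, and 2 of 5 endothelial markers to 0.614 to 6.06 CPM; their part in the results was not tested. The Ado KO guide 1 replicate 2 library at 1 h stood apart for some genes, reading 6.08 for Dusp6, 1.60 for Cyr61 and 2.10 for Smim26, below each of the 23 others, and results that rest on it are given with and without it.

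**Figure D1:**
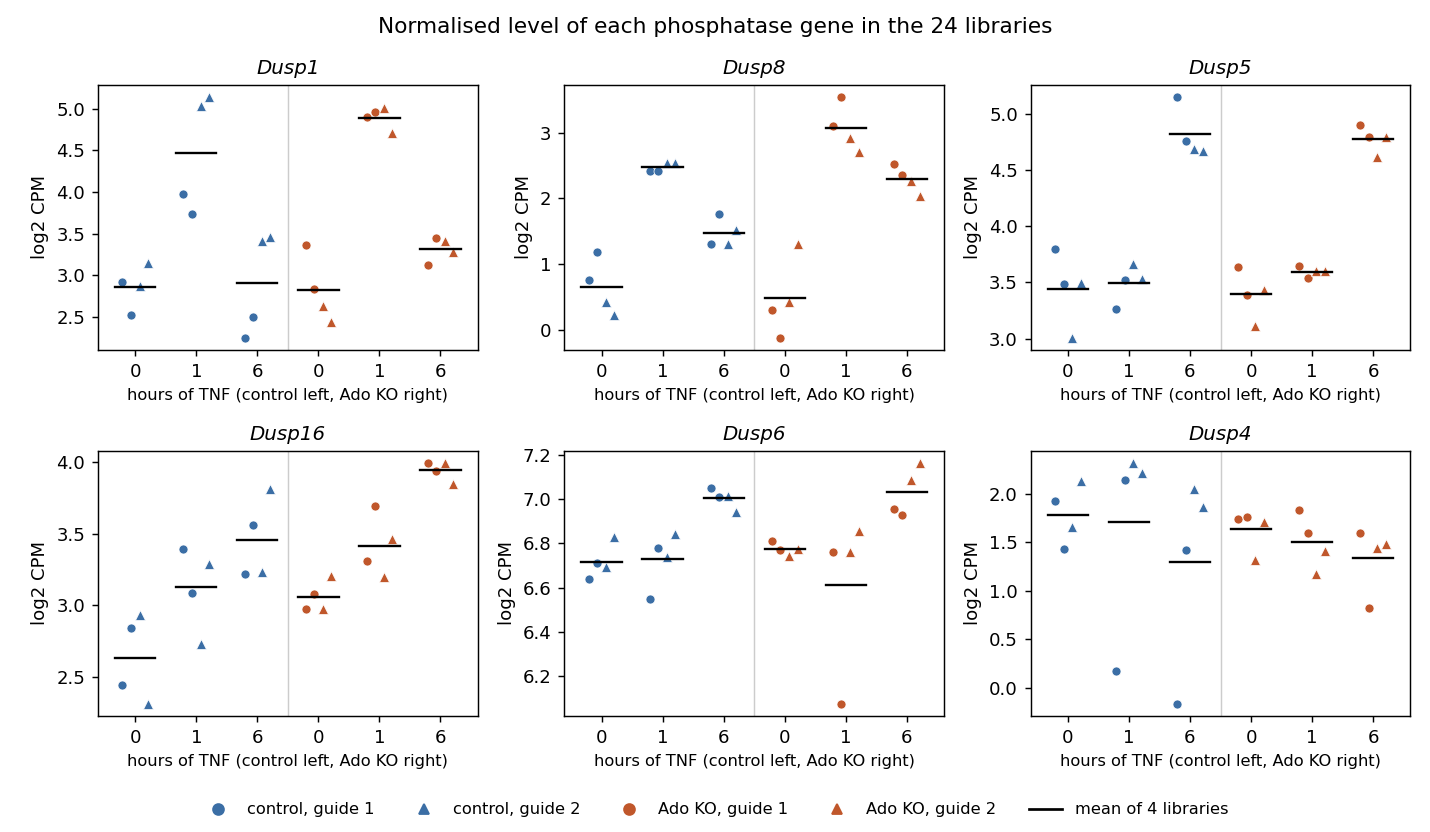
Normalised level (log2 CPM) of the 6 phosphatase genes in each of the 24 libraries, by genotype and hours of TNF; circles are guide 1, triangles guide 2 and black bars the mean of 4 libraries. Dusp1 and Dusp8 are highest at 1 h, Dusp5 and Dusp16 at 6 h.

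Dusp1 rose within 1 h of TNF and had fallen again at 6 h. In untreated control cells its level was 2.91 and 2.52 log2 CPM with guide 1 and 2.87 and 3.15 with guide 2. At 1 h it was 3.97 and 3.73 with guide 1 and 5.03 and 5.14 with guide 2, and at 6 h 2.25 and 2.50 with guide 1 and 3.42 and 3.46 with guide 2. All 4 libraries at 1 h lay above all 4 untreated ones and above all 4 at 6 h, while the untreated and 6 h ranges overlapped. Values of 4 libraries are given from here on as guide 1 replicates 1 and 2, then guide 2 replicates 1 and 2. In Ado KO cells Dusp1 was 3.36, 2.84, 2.63 and 2.44 untreated, 4.90, 4.96, 5.00 and 4.71 at 1 h, and 3.13, 3.45, 3.42 and 3.28 at 6 h. The Ado KO libraries at 1 h were again above every untreated and every 6 h library of that genotype. The change at 1 h was 1.60 ± 0.25 (log2, SE) in control libraries (adjusted p = 0.0002) and 2.07 ± 0.25 in Ado KO libraries (adjusted p = 1.57e-06). From 1 h to 6 h Dusp1 fell by 1.56 in control and by 1.57 in Ado KO libraries (adjusted p = 2.45e-05 and 3.38e-05). At 6 h against untreated it did not pass the test in either genotype, with changes of 0.04 (95% interval -0.46 to 0.54) in control and 0.50 (-0.01 to 1.00) in Ado KO libraries. With guide populations as fixed terms the Ado KO change at 6 h passed the test (adjusted p = 0.0472).

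Dusp8, a phosphatase preferring JNK and p38, rose at 1 h from a level close to the lower end of what was counted and stayed above its untreated level at 6 h. Its untreated libraries read 0.75, 1.18, 0.42 and 0.21 log2 CPM in control and 0.30, -0.13, 0.41 and 1.31 in Ado KO cells, which at the average depth stands for 4.2 to 12.1 tags. At 1 h the control libraries read 2.41, 2.42, 2.54 and 2.54 and the Ado KO libraries 3.09, 3.54, 2.92 and 2.70. At 6 h they read 1.31, 1.76, 1.31 and 1.51 in control and 2.52, 2.36, 2.26 and 2.03 in Ado KO cells. Within each genotype the untreated, 6 h and 1 h libraries of Dusp8 formed 3 ranges, in that ascending order, that did not overlap. The change at 1 h was 1.84 ± 0.27 in control (adjusted p = 0.0001) and 2.59 ± 0.27 in Ado KO libraries (adjusted p = 1.20e-07), rank 21 and rank 4 from the highest of the 13272 genes tested. At 6 h the change was 0.83 ± 0.27 in control (adjusted p = 0.0325) and 1.82 ± 0.27 in Ado KO libraries (adjusted p = 1.22e-05). From 1 h to 6 h Dusp8 fell by 1.00 in control libraries (adjusted p = 0.0156), and the difference of -0.77 in Ado KO libraries missed the threshold (adjusted p = 0.079). The control call at 6 h was lost without any of 5 of the 8 libraries (lowest change 0.69, adjusted p = 0.106) and with 2 CPM added before the log (0.42, adjusted p = 0.0581). That addition, which shrinks changes of low genes, gave 1.08 and 1.60 at 1 h in control and Ado KO libraries and 1.005 at 6 h in Ado KO libraries, and all 3 remained called (adjusted p = 5.34e-05, 1.62e-08 and 1.51e-05).

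Counted together, 2 of the 6 members, Dusp1 and Dusp8, were called higher at 1 h in each genotype, where 0.332% of all genes tested were called higher in control and 0.241% in Ado KO libraries. The median change of the 6 members at 1 h was 0.27 in control and 0.28 in Ado KO libraries, against -0.03 and -0.002 over all genes tested. The members were chosen with earlier results of these data known, so these counts and medians are a description. From 1 h to 6 h Dusp1 and Dusp8 were lower in control libraries (background 2.86% of genes) and Dusp1 alone was lower in Ado KO libraries (background 3.72%). Across the 24 libraries the levels of Dusp1 and Dusp8 had a Pearson r of 0.73, the highest of any pair of members; the libraries share treatments and processing, so this describes their order only. With 2 libraries per group some of these calls were lost: without control guide 2 the change of Dusp8 at 1 h was 1.45 (adjusted p = 0.0581), and without Ado guide 2 that of Dusp1 at 1 h was 1.83 (adjusted p = 0.0519).

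**Figure D2:**
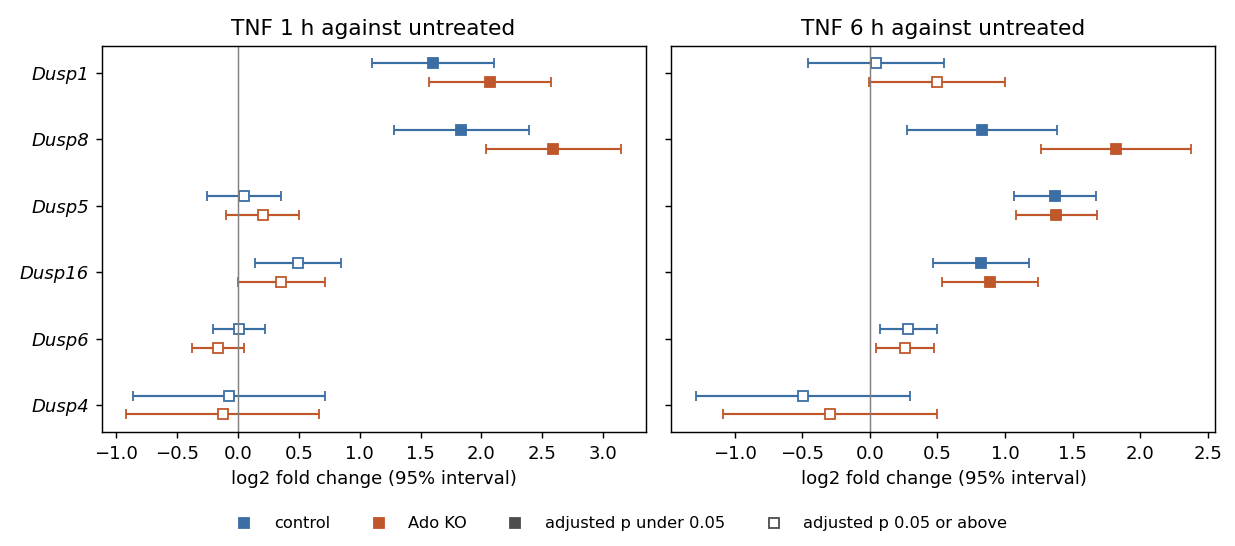
Change of each gene on the log2 scale at 1 h (left) and 6 h (right) of TNF against untreated libraries, with 95% intervals from limma; blue is control, orange Ado KO, filled squares passed an adjusted p of 0.05. At 1 h only Dusp1 and Dusp8 are filled, and at 6 h Dusp8, Dusp5 and Dusp16.

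Dusp16, the other phosphatase preferring JNK and p38, rose by 6 h. The untreated libraries read 2.44, 2.84, 2.94 and 2.31 log2 CPM in control and 2.98, 3.08, 2.98 and 3.21 in Ado KO cells. At 1 h they read 3.40, 3.09, 2.73 and 3.29 in control and 3.31, 3.69, 3.20 and 3.47 in Ado KO cells, and at 6 h 3.22, 3.56, 3.23 and 3.81 in control and 4.00, 3.94, 4.00 and 3.85 in Ado KO cells. The 6 h libraries did not overlap the untreated ones in either genotype. The 1 h range overlapped both others in control cells and the untreated one only in Ado KO cells. The change at 6 h was 0.82 ± 0.17 in control (adjusted p = 0.0010) and 0.89 ± 0.17 in Ado KO libraries (adjusted p = 0.0007). At 1 h the values of 0.49 (95% interval 0.14 to 0.85) and 0.36 (0.00 to 0.71) did not pass the test after adjustment (adjusted p = 0.19 and 0.69). The difference between 6 h and 1 h was 0.33 in control and 0.53 in Ado KO libraries (adjusted p = 0.29 and 0.0575). Without Ado guide 1 or guide 2 the Ado KO change at 6 h was 0.83 or 0.94 and missed the threshold with the 2 libraries per group that remained (adjusted p = 0.13 and 0.0602).

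Dusp5, the nuclear ERK phosphatase, did not pass the test at 1 h and had the smallest adjusted p of the 6 genes at 6 h in each genotype. Control libraries read 3.79, 3.49, 3.01 and 3.49 log2 CPM untreated, 3.26, 3.52, 3.66 and 3.53 at 1 h, and 5.15, 4.76, 4.68 and 4.67 at 6 h. Ado KO libraries read 3.63, 3.39, 3.12 and 3.43 untreated, 3.64, 3.54, 3.60 and 3.60 at 1 h, and 4.90, 4.79, 4.62 and 4.79 at 6 h. Every 6 h library was above every untreated and 1 h library of both genotypes. The change at 6 h was 1.37 ± 0.15 in control (adjusted p = 1.70e-08) and 1.38 ± 0.15 in Ado KO libraries (adjusted p = 2.33e-08), and from 1 h to 6 h it was 1.32 and 1.18 (adjusted p = 5.30e-08 and 8.14e-07). At 1 h the change was 0.05 (95% interval -0.25 to 0.35) in control and 0.20 (-0.10 to 0.50) in Ado KO libraries. Every alternative fit at 6 h (11 settings and 8 fits without 1 library in each genotype) kept the call, with changes between 1.22 and 1.48. The antisense gene AC137853.2, which is not a row of the table, overlaps Dusp5 but has no exon over its last exon. Ergic1 and Gm8225, which are rows of the table, overlap Dusp1 on the opposite strand, also with no exon over its last exon. Whether the counting used strand is not given in the sources used here.

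Dusp6, the cytoplasmic ERK phosphatase, had the narrowest range of the 6 genes, from 6.08 to 7.16 log2 CPM. Control libraries read 6.64, 6.71, 6.69 and 6.83 log2 CPM untreated, 6.55, 6.78, 6.74 and 6.84 at 1 h, and 7.05, 7.01, 7.01 and 6.94 at 6 h. Ado KO libraries read 6.81, 6.77, 6.74 and 6.77 untreated, 6.76, 6.08, 6.76 and 6.86 at 1 h, and 6.96, 6.93, 7.09 and 7.16 at 6 h. All 8 libraries at 6 h lay above the 16 others, although the differences were small. The value at 6 h against untreated was 0.29 ± 0.10 in control (adjusted p = 0.0558) and 0.26 ± 0.10 in Ado KO libraries (adjusted p = 0.17). The control value passed the test with guide populations as fixed terms (adjusted p = 0.0336), with a stricter filter on low values (0.0493) and after the protein-coding genes were normalised again (0.0466). From 1 h to 6 h Dusp6 rose by 0.42 ± 0.10 in Ado KO libraries (adjusted p = 0.0092), and the value was 0.28 in control libraries (adjusted p = 0.11). That Ado KO call turned on a library: without guide 1 replicate 2 at 1 h, the low value of 6.08, the change was 0.24 (adjusted p = 0.0614). Without the same library the Ado KO difference of Dusp16 between 6 h and 1 h was 0.62 and passed the test (adjusted p = 0.0443).

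Dusp4, a nuclear phosphatase of ERK and JNK, passed no test of treatment or genotype in the fit to all 24 libraries, and the SD of its control libraries at 1 h, 1.03, was the highest of any member and group. Control libraries read 1.93, 1.42, 1.66 and 2.13 log2 CPM untreated, 0.17, 2.14, 2.32 and 2.21 at 1 h, and -0.17, 1.42, 2.05 and 1.87 at 6 h. Ado KO libraries read 1.74, 1.76, 1.31 and 1.71 untreated, 1.84, 1.60, 1.18 and 1.41 at 1 h, and 1.60, 0.82, 1.44 and 1.48 at 6 h. At the average depth these levels stand for 4.0 to 24.9 tags. The 95% interval of the change at 6 h was -1.28 to 0.30 in control and -1.09 to 0.49 in Ado KO libraries, so a value of -1 lay inside both. Averaged over the 3 treatments Dusp4 differed by -0.11 between Ado KO and control libraries, and without control guide 1 by -0.55, which passed the test (adjusted p = 0.0431).

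At 6 h against untreated, 3 of the 6 members were called higher in each genotype, Dusp5, Dusp8 and Dusp16, where 7.74% of all genes tested were called higher in control and 4.42% in Ado KO libraries. Between 1 h and 6 h Dusp5 rose in control libraries (background 4.82%) and Dusp5 and Dusp6 rose in Ado KO libraries (background 4.05%). The median change of the 6 members was 0.55 in control and 0.69 in Ado KO libraries, against -0.09 and -0.05 over all genes tested. As at 1 h, the choice of members with earlier results known makes these values a description.

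The comparison of genotypes asks whether targeting Ado altered the levels or the TNF response of these genes. None of the 6 members was called between Ado KO and control libraries, either untreated, at 1 h or at 6 h, where 0.249%, 1.06% and 1.02% of genes were called in either direction; at an unadjusted p under 0.05 limma counted 1 of 6, 1 of 6 and 2 of 6 members, and 1166, 2094 and 1512 of 13272 genes, which is 8.79%, 15.8% and 11.4%. The response to TNF was also not shown to differ. At 1 h no gene of the whole table passed the test of the interaction (0% called, 1304 of 13272 at an unadjusted p under 0.05), and at 6 h 0.347% of genes passed and no member did. At an unadjusted p under 0.05 the 1 h interaction held 0 of 6 members. The 6 h interaction held 1 of 6, Dusp8 (limma unadjusted p = 0.0155), and 893 of 13272 genes, which is 6.73%.

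**Figure D3:**
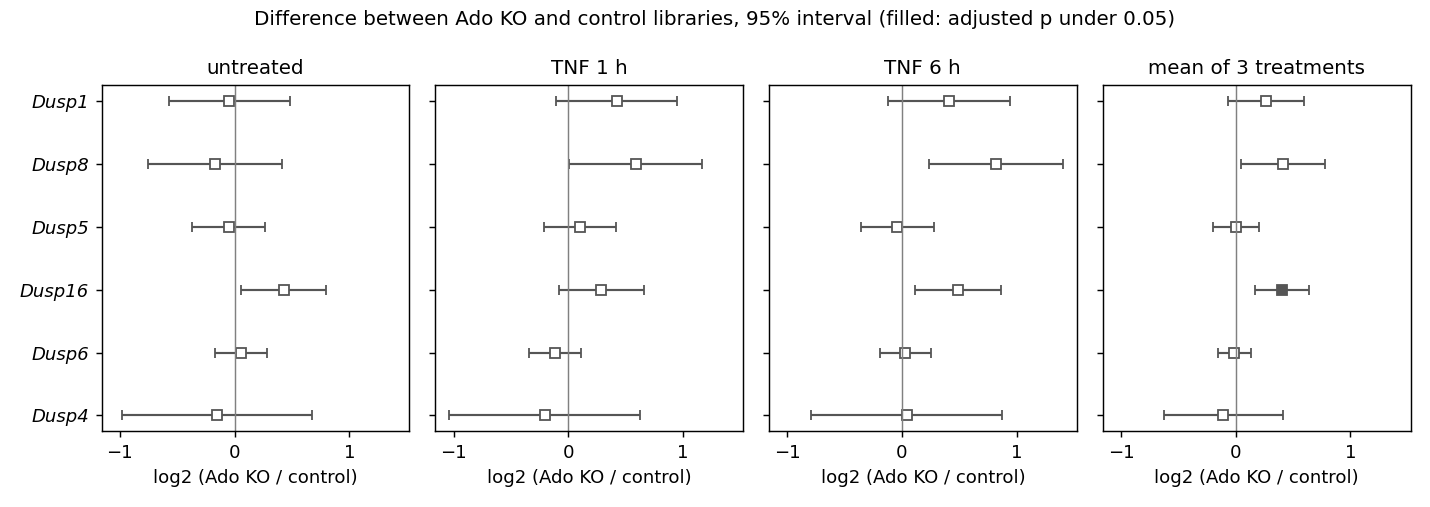
Difference between Ado KO and control libraries on the log2 scale for each gene, untreated, at 1 h, at 6 h and averaged over the 3 treatments, with 95% intervals from limma; filled squares passed an adjusted p of 0.05. Dusp16 is above 0 in all 4 panels and is filled in the average alone.

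Dusp8 and Dusp16 were the members whose libraries separated by genotype. All 4 Ado KO libraries of Dusp16 exceeded all 4 control libraries untreated and at 6 h, and all 4 Ado KO libraries of Dusp8 exceeded all 4 control libraries at 1 h and at 6 h. Such a separation in either direction occurred for 6.34% of genes untreated, 7.15% at 1 h and 8.63% at 6 h. For Dusp16 the difference was 0.43 ± 0.18 untreated, 0.29 ± 0.18 at 1 h and 0.49 ± 0.18 at 6 h, with adjusted p of 0.47, 0.46 and 0.25. Averaged over the 3 treatments, a comparison added after the data had been seen, Dusp16 was 0.40 ± 0.12 higher in Ado KO libraries (adjusted p = 0.0469), where 1.79% of genes were called higher. That call was lost without any one of 16 of the 24 libraries, with adjusted p between 0.0255 and 0.0856 over the 24 fits and values between 0.36 and 0.44. It was also lost without Ado guide 1 (0.38, adjusted p = 0.30) and without Ado guide 2 (0.43, adjusted p = 0.22). A stricter filter on low values (adjusted p = 0.0512) and a fit with no trend (adjusted p = 0.0559) lost the call too. The other settings, including those without a control guide, kept it. For Dusp8 the difference was -0.17 ± 0.29 untreated, 0.59 ± 0.29 at 1 h and 0.82 ± 0.29 at 6 h (adjusted p = 0.93, 0.31 and 0.20), and the interaction was 0.75 ± 0.39 at 1 h and 0.99 ± 0.39 at 6 h (adjusted p = 0.52 and 0.62). The differences of Dusp5 between genotypes were -0.05, 0.10 and -0.04 in the 3 treatments, and their 95% intervals lay within -0.37 and 0.42.

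Within a genotype the guide populations differed for Dusp1. At 1 h its level was 1.23 ± 0.22 higher with control guide 2 than with control guide 1 (adjusted p = 0.0035), where 0.761% of genes were called higher, and at 6 h 1.07 ± 0.22 higher (adjusted p = 0.0147), where 0.437% were. These fits compare 2 libraries with 2, and leaving out 1 of the 4 gave differences of 1.12 to 1.35 at 1 h and 0.94 to 1.19 at 6 h, with the call lost in 3 of the 4 cases at each time. Untreated, the same difference was 0.29 ± 0.22 (adjusted p = 0.69, background 0.897%). The change at 1 h was 1.13 with control guide 1 and 2.08 with control guide 2, and the test of that difference, 0.94 ± 0.31, did not pass (adjusted p = 0.25, background 0.00753%). In Ado KO cells the change at 1 h was 1.83 with guide 1 and 2.32 with guide 2, so that 3 of the 4 populations lay within 1.83 and 2.32 and control guide 1 lay below them. Without control guide 2, Dusp1 was 1.04 higher in Ado KO than in control libraries at 1 h and 0.94 higher at 6 h (adjusted p = 0.0067 and 0.0151). Without control guide 1 the differences were -0.19 and -0.12 and passed no test (adjusted p = 0.74 and 0.90), so the difference between Ado KO and control libraries in Dusp1 depends on which control guide is used. The difference between 6 h and 1 h lay between -1.65 and -1.48 in the 4 populations.

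**Figure D4:**
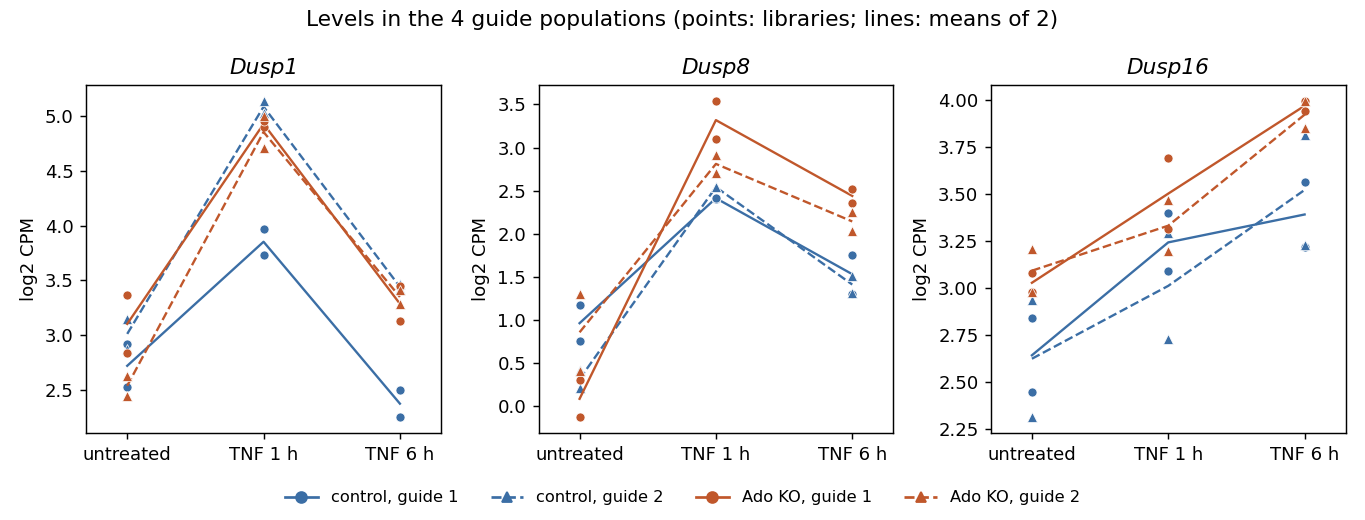
Levels (log2 CPM) of Dusp1, Dusp8 and Dusp16 in the 4 guide populations, untreated and at 1 h and 6 h of TNF; points are libraries, lines join the means of 2 libraries, solid for guide 1 and dashed for guide 2. For Dusp1 the control guide 1 population, with means of 3.85 at 1 h and 2.37 at 6 h, lies below the other populations at both times.

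For Dusp8 the change at 1 h was 1.45 and 2.22 with control guides 1 and 2 and 3.23 and 1.95 with Ado guides 1 and 2. The change at 6 h was 0.57, 1.09, 2.35 and 1.28 in the same order. The population with Ado guide 1 thus had the highest change at both times, and its untreated mean of 0.09 was the lowest of the 4. The difference between the Ado guides in the response at 1 h was -1.28 ± 0.51 and did not pass the test (adjusted p = 0.71). Without Ado guide 1 the Ado KO change of Dusp8 at 6 h was 1.28 (adjusted p = 0.0773).

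Among the other DUSP genes, 14 of the 17 listed were in the table and 13 were tested. None was called at 1 h in either genotype or at 6 h in Ado KO libraries, and 3 fell at 6 h in control libraries, where 10.3% of all genes tested were called lower. These were Dusp18 and Dusp28, atypical members of the family, by 0.58 and 1.21 on the log2 scale (adjusted p = 0.0051 and 0.0306), and Dusp9, an ERK phosphatase, by 0.23 (adjusted p = 0.0371). Dusp9 went from 7.12 ± 0.08 log2 CPM (SD, n = 4) untreated to 6.88 ± 0.10 in those libraries. Dusp28 was low and scattered, going from 1.47 ± 0.26 untreated to 0.27 ± 1.13 there. Its 6 h libraries, at -0.99 to 1.51, overlapped the untreated ones, at 1.31 to 1.86. The test of the interaction at 6 h called none of the 13, with values of 0.25 for Dusp18, 1.00 for Dusp28 and 0.10 for Dusp9 (adjusted p = 0.87, 0.78 and 0.91). Of the other MAP kinase phosphatases, Dusp10, which prefers JNK and p38, had a value of 0.48 ± 0.43 at 1 h and 0.17 ± 0.43 at 6 h in control libraries, Dusp2 had -0.28 ± 0.38 and 0.74 ± 0.38, and Dusp7 had 0.09 ± 0.14 and 0.23 ± 0.14. Their adjusted p lay between 0.18 and 0.82. The median change of the 13 genes at 6 h was 0.08 in control libraries.

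ERK, JNK and p38 are the MAP kinases these phosphatases act on, and the list tested also holds other MAP kinases, Mapk6 and Nlk among them. Of 10 MAP kinase genes tested, none was called at 1 h in either genotype, and at 6 h 2 rose and 1 fell in control libraries, where 7.74% of all genes were called higher and 10.3% lower. There Mapk6 (ERK3) rose by 0.54 ± 0.13 and Nlk by 0.28 ± 0.09 in control libraries (adjusted p = 0.0026 and 0.0212) while Mapk3 (ERK1) fell by 0.25 (adjusted p = 0.0087). In Ado KO libraries Mapk6 alone was called at 6 h, at 0.45 ± 0.13 (adjusted p = 0.0227), where 4.42% of all genes were called higher and 2.02% lower. Between genotypes Nlk was lower in Ado KO libraries at 1 h (-0.35 ± 0.09, adjusted p = 0.0476, with 1.06% of genes called in either direction). Mapk3 was lower on average over the treatments (-0.17 ± 0.04, adjusted p = 0.0228), where 1.38% of genes were called lower. The kinases upstream of the MAP kinases pass the signal on to them. Of 24 tested none was called at 1 h, and at 6 h 1 rose and 4 fell in control libraries and 1 rose and 1 fell in those labelled Ado KO. Over all genes, 7.74% were called higher and 10.3% lower in control libraries at 6 h, and 4.42% and 2.02% in Ado KO libraries. The median change of the 24 at 6 h was -0.10 in control libraries, against -0.09 over all genes tested. In Ado KO libraries the median was -0.02, against -0.05. At 6 h Map2k3, an activator of p38, rose by 0.41 ± 0.07 in control and 0.27 ± 0.07 in Ado KO libraries (adjusted p = 8.41e-05 and 0.0139). Map2k6, the other activator of p38 of that pair, was called lower in both genotypes and fell by 1.75 in Ado KO libraries (adjusted p = 0.0263), where its level was -0.92 ± 0.26 log2 CPM (SD, n = 4). Map3k14 (NIK) fell by 0.90 and Map2k7, an activator of JNK, by 0.38 in control libraries (adjusted p = 0.0007 and 0.0187), and Araf and Map2k6 were the others of 4 called lower there.

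Active ERK raises the transcription of immediate early genes and of its own feedback inhibitors. Of 20 ERK output and feedback genes 3 rose at 1 h in control libraries and 4 in Ado KO libraries, and at 6 h 10 rose and 2 fell in control and 6 rose and 2 fell in Ado KO libraries. The shares of all genes called higher were 0.332% and 0.241% at 1 h and 7.74% and 4.42% at 6 h, and 10.3% and 2.02% were called lower at 6 h, in control and Ado KO libraries. The median of the 20 at 6 h was 0.64 in control and 0.48 in Ado KO libraries. Ier3, an immediate early gene, rose by 1.75 ± 0.11 at 1 h and 1.44 ± 0.11 at 6 h in control libraries (adjusted p = 1.27e-12 and 1.24e-11). Egr1, the early growth response transcription factor, rose by 0.94 ± 0.14 at 1 h and 1.91 ± 0.14 at 6 h in control libraries (adjusted p = 0.0001 and 2.61e-12). Phlda1 rose at 1 h by 0.50 in control and 0.49 in Ado KO libraries, and Fosl1, a Fos family factor, by 0.77 at 6 h in Ado KO libraries (adjusted p = 2.06e-09). Etv1, an ETS factor, fell by 2.45 at 6 h in control libraries (adjusted p = 5.41e-09), to a low level of 0.66 ± 0.61 log2 CPM (SD, n = 4). In Ado KO libraries Etv1 was called lower at 6 h as well, going from 2.82 ± 0.33 untreated to 1.68 ± 0.39. The test of the interaction at 6 h called 0 of the 20 genes. At 6 h Etv1 was 1.03 ± 0.26 higher in Ado KO than in control libraries (adjusted p = 0.0471), the only one of the 20 called between genotypes in the 3 treatments, where 1.02% of genes were called at that time.

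Of 19 tested substrates, effectors and regulators of JNK and p38, 5 rose at 1 h in control libraries and 6 in those labelled Ado KO, and at 6 h 6 rose in each genotype while 1 fell in control libraries. Among all genes 0.332% and 0.241% were called higher at 1 h in control and Ado KO libraries, 7.74% and 4.42% at 6 h, and 10.3% were called lower at 6 h in control libraries. Junb and Jun, subunits of AP-1, rose by 2.38 ± 0.12 and 0.90 ± 0.07 at 1 h in control libraries (adjusted p = 3.35e-15 and 5.27e-11). Zfp36, which encodes the mRNA decay factor tristetraprolin, rose at 1 h by 2.48 ± 0.21 in control libraries and by 2.58 ± 0.21 in those labelled Ado KO (adjusted p = 8.18e-10 and 2.92e-10). At 6 h Junb was still 2.17 ± 0.12 above untreated in control libraries (adjusted p = 2.98e-15) and Gadd45b, an activator of upstream kinases of p38, 1.71 ± 0.21 (adjusted p = 1.75e-07). The median change at 1 h in control libraries was 0.05 for these 19 genes and 0.12 for the 20 ERK genes, against -0.03 for all genes tested. At 6 h the median of the 19 was -0.12 in control libraries, against -0.09 for all genes tested. In Ado KO libraries it was 0.007 at 6 h, against -0.05.

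**Figure D5:**
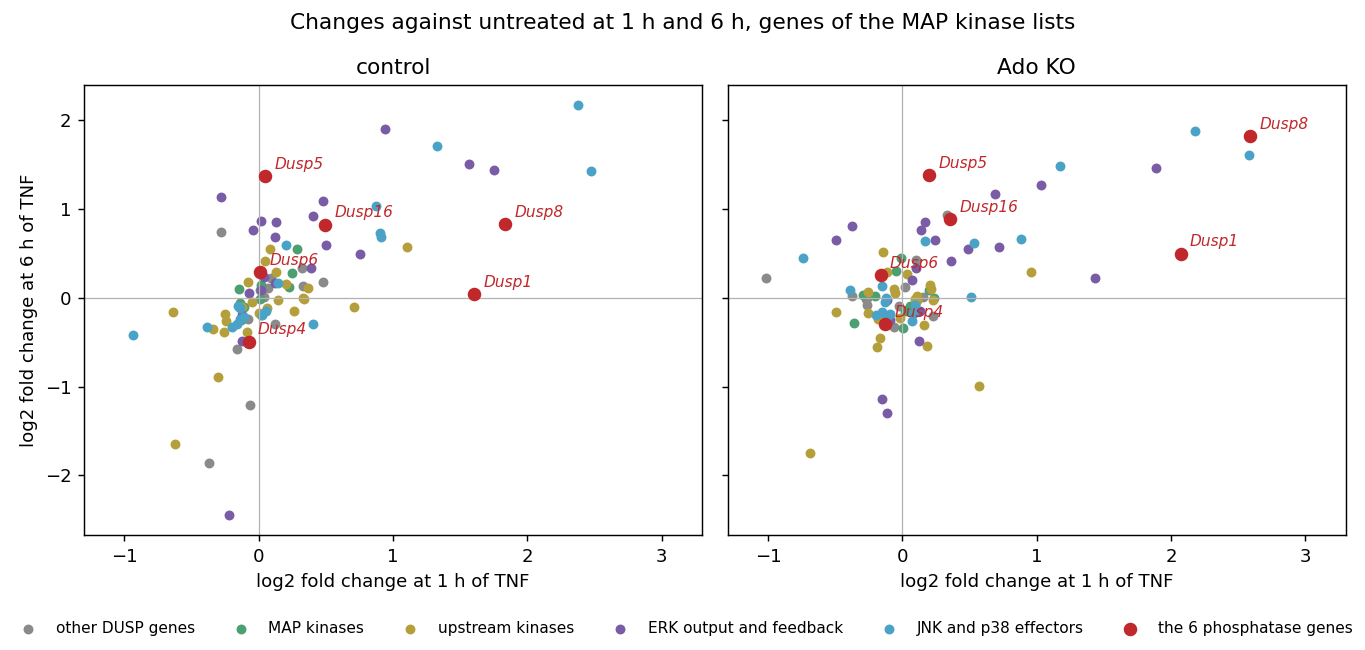
Change on the log2 scale at 6 h of TNF against that at 1 h, both relative to the same untreated libraries, for the 6 phosphatase genes (red, named) and the tested genes of 5 lists of the MAP kinase pathways; left control, right Ado KO. Dusp1 lies low and to the right with changes of 1.60 at 1 h and 0.04 at 6 h in control libraries, Dusp5 at 0.05 and 1.37, and Dusp8 at 1.84 and 0.83.

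The genes whose levels followed each member most closely over the 24 libraries, by Pearson r, are given as a description, since all libraries share the treatments. For Dusp1 they were Zfp36 (0.79), Bbc3, which encodes the cell death protein PUMA (0.77), and Ier3 (0.72), and for Dusp8 they were Ier3 (0.87), Zfp36 (0.86) and Irf1, an interferon regulatory factor (0.85). Zfp36 went from 2.06 ± 0.27 log2 CPM (SD, n = 4) untreated to 4.54 ± 0.44 at 1 h and 3.48 ± 0.21 at 6 h in control libraries, a peak at 1 h as for Dusp1, but at 6 h it was still called higher than untreated (1.42 ± 0.21, adjusted p = 5.80e-06). Bbc3 was not called in any TNF comparison against untreated. The genes nearest to Dusp5 were Plau, the urokinase plasminogen activator (0.96), Rpph1, the RNA of ribonuclease P (0.96), and Oaf (0.95). Rpph1 is not a messenger RNA and is normally not polyadenylated; it rose by 5.05 ± 0.20 at 6 h in control libraries (adjusted p = 5.15e-19), and with protein-coding genes alone normalised again the change of Dusp5 at 6 h was 1.41 (adjusted p = 1.18e-08). For Dusp16 the nearest were Ifrd1 (0.87), the chemokine Cxcl10 (0.85) and Enc1 (0.82). Ifrd1 and Cxcl10 were called higher at 6 h in both genotypes, by 1.04 and 2.41 in control libraries (adjusted p = 3.49e-11 and 1.08e-13). Both were also called higher at 1 h in control libraries, by 0.47 ± 0.08 and 1.45 ± 0.16 (adjusted p = 0.0026 and 1.72e-07). There the change of Dusp16, 0.49 ± 0.17, was close in size to that of Ifrd1 but did not pass the test. In Ado KO libraries at 1 h Cxcl10 was called (1.48, adjusted p = 1.20e-07) and Ifrd1 was not (0.24, adjusted p = 0.47). The nearest to Dusp6 were Cyr61, which encodes a secreted matrix protein (0.87), Smim26 (0.85) and Myadm (0.83), an order that rested on 1 library. Without Ado KO guide 1 replicate 2 at 1 h their r with Dusp6 was 0.71, 0.66 and 0.79, and they ranked between 115 and 378 among the 11031 genes compared. Cyr61 read 1.60 log2 CPM in that library and 5.11 to 7.26 in the 23 others. The nearest to Dusp4 were Paqr7 (0.77), Rxra, a retinoid receptor (0.74), and Hoxa9 (0.73), with r of 0.78, 0.69 and 0.72 without the 2 libraries in which Dusp4 stood apart from its group, the control guide 1 replicate 1 library at 1 h and the untreated Ado KO guide 2 replicate 1 library.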

How the data were processed

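RNA of 24 MC38 libraries was prepared with the QuantSeq 3' kit, per the labels' protocols. FastQC, cutadapt 1.7, HISAT2, featureCounts, Subread and limma, with builds GRCm38 and mm10, are named in the submitters' processing notes, with no parameters or strand setting. The deposited table holds normalised log2 CPM values (tag counts per 1000000) for 15390 genes. That the unit is log2 CPM was read from the values, which range from -3.35 to 17.04 and sum to 998900 to 999014 per library after unlogging. The lowest value is shared by 617 to 1013 genes in each library, and all libraries share the lowest and highest value, so levels are relative to a common distribution.

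Groups, guides and replicate numbers were taken from the titles and characteristics; for control guide 2 at TNF 1 h the column names and the titles give opposite replicate numbers, and titles were followed. A gene was tested if it reached a log2 CPM of 0 in at least 4 libraries (13272 genes). limma 3.58.1 (R 4.3.3, statmod 1.5.0) fitted 6 group means, with guide population as a random block (correlation 0.0485) and a mean-variance trend; contrasts compared treatments, genotypes and their interaction, and adjusted p is Benjamini-Hochberg over all genes tested, with 0.05 as the threshold. Guides were compared with 12 means and no block. Tests are two-sided. Python 3.11.15, pandas 2.3.3 and matplotlib 3.10.9 made summaries and figures, and the fit was tested on simulated data.

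The members and gene lists were chosen with earlier results of these data known; guide comparisons and the average over treatments were added after seeing the data. Named besides the members were, per member, the 3 genes with the highest Pearson r over 24 libraries (no members, Gm or Rik genes) and, per list, up to 3 called genes with the smallest adjusted p in each TNF comparison; Araf, Map2k6 in control libraries, Dusp2, Dusp7 and Dusp10 were named after their values were seen. Upstream windows came from a RefSeq table on GRCm38.p6. Alternatives were no guide block, fixed guide terms, a replicate block, no filter or one at log2 CPM 2, 2 CPM added before the log, median scaling, protein-coding genes normalised again (11834 genes, without histone genes), no trend, and leaving out a library or a guide population. Replicate numbers did not pair libraries: deviations of same-numbered libraries correlated between -0.158 and 0.0543.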

Additional observations from a re-analysis of the deposited data

Results flagged for a closer look

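In 3 of the 36 sets of 4 libraries (6 genes in 6 groups) a library stood apart from the other 3 by the gap to its nearest neighbour as a share of the whole range (Dixon's ratio for 4 values); about 1 set in 20 does so by chance. Dusp4 read 0.175 log2 CPM in the control guide 1 replicate 1 library at TNF 1 h, with a gap ratio of 0.918, while the others read 2.14 to 2.32. Dusp4 also read 1.31 in the untreated Ado KO guide 2 replicate 1 library, with a ratio of 0.894, and the others read 1.71 to 1.76. Dusp6 read 6.08 in the Ado KO guide 1 replicate 2 library at TNF 1 h, with a ratio of 0.877, and the others read 6.76 to 6.86; the Dusp6 change from 1 h to 6 h in Ado KO libraries was called with this library and missed the threshold without it. The cause of these values was not tested.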

How the results depend on the processing

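Over 786 refits of member changes in the planned comparisons under other settings, 12 calls were lost, 9 were gained and 0 turned direction. Over 624 refits without 1 library, 7 were lost and 1 was gained. Most member results were not called in the main fit, so most of these refits had no call to lose. Most of the 12 losses came from leaving out a guide population. The number of members called moved by more than 1.5 times in 6 cases. With 2 CPM added before the log, 5 members instead of 3 were called between 6 h and 1 h in Ado KO libraries, Dusp8 (-0.59, adjusted p = 0.0127) and Dusp16 (0.46, adjusted p = 0.0440) being the additions. Without the control guide 2 population, 1 instead of 2 was called at 1 h in control libraries, and 1 instead of 0 between genotypes at 1 h and 1 instead of 0 at 6 h (Dusp1). Without Ado guide 1, 1 member instead of 3 was called at 6 h in Ado KO libraries, and without Ado guide 2, 1 instead of 2 at 1 h. These fits hold fewer libraries, 2 in a group. Leaving out 1 library gave 2 to 3 members called at 6 h in control libraries and 2 to 3 between 6 h and 1 h there, and the same counts elsewhere. Dusp8 between 6 h and 1 h in control libraries missed the threshold with protein-coding genes normalised again (-0.90, adjusted p = 0.0530). With a replicate block 2 members were called at 1 h and 3 at 6 h in each genotype, as without it, and no count of members changed. Dusp4 passed one test between genotypes, averaged over treatments and without control guide 1 (-0.55, adjusted p = 0.0431). Over all genes, protein-coding genes normalised again gave 1415 instead of 2392 calls at 6 h in control libraries, and 38 instead of 135 between genotypes at 6 h, 60.5% instead of 41.5% of them higher in Ado KO. Dusp4 and untreated Dusp8 stood for at most 24.9 and 12.1 tags at the average depth, which limits their precision. The cause of these shifts was not tested.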
